A study of Homo sapiens with 9 samples.

Results

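The 43 genes described here are a named list of type I interferon response genes, each matched by symbol to 1 row, 43 of the 45754 rows in all, of the deposited table of gene expression. They were grouped by role into 8 nucleic acid sensors, 6 transcription factors, 4 IFIT genes, 8 other antiviral effectors, 10 genes of ISG15, ubiquitin and ADP-ribose enzymes, and 7 other induced genes. RNA was sequenced in 9 libraries of human cells labelled H441, a lung adenocarcinoma line, with 3 libraries in each of 3 groups. The control group received 0.1% DMSO, the second group the compound BSGL at 10 µM and the third the compound RSGL at 10 µM, each for 24 h. Both compounds are known here only by these code names. While H441 is the cell line of all 9, a further tag gives the genotype as H460 in the control and BSGL groups but as A549 in the RSGL group, so RSGL and the cells named in that tag cannot be told apart. Whether the replicates were separate cultures is not said in the labels, and p-values then reflect only how far these samples vary, part of which may be technical.

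Type I interferons are secreted by cells that sense foreign nucleic acid, and they bind a receptor made of IFNAR1 and IFNAR2. The kinases JAK1 and TYK2 then phosphorylate STAT factors, among them STAT2, which join IRF9 and bind the interferon-stimulated response element in the promoters of target genes. Many of the targets block viral replication, and several are themselves sensors or factors of the pathway, so that a low level of the response can run in unstimulated epithelial cells.

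Values are FPKM, the fragments of a gene divided by its length and by the size of the library, which compare genes per length. The libraries held 16720414 to 18738947 fragments in genes, recovered from FPKM and gene length. The labels name no agent that starts an interferon response. In control, 16 of the 43 genes had a mean of at least 10 FPKM, 21 had 1 to 10 and 6 were under 1. A gene was tested where at least 3 of the 9 libraries reached 1 FPKM, which 38 of the 43 did, and differences are on the log2(FPKM + 1) scale, which understates changes of low genes. The 5 genes not tested were MX1, CMPK2, XAF1, EPSTI1 and IFI27. Called genes had an adjusted p under 0.05 from limma, with Benjamini-Hochberg adjustment over the 12775 genes tested. Rows for IRF7, IRF9 and IFI27 lie on sequences other than the main chromosomes and are uncertain.

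The defining lung markers of H441 were close to absent. None of the 9 markers was tested, their summed level ran from 1.08 to 2.30 FPKM over the libraries, and NKX2-1, the factor that sets lung lineage, did not pass 0.0596 FPKM in any library. All 10 markers of lines with mutant KEAP1 were expressed, with sums of 4050 to 4149 FPKM in control, 3772 to 3854 under BSGL and 2202 to 2273 under RSGL. They did not move as one. Under BSGL 1 of the 10 was called lower, against 0.0861% of all genes tested called in either direction. Under RSGL 8 were called lower and 2 higher, against 27.6% and 27.2% of all genes tested. Of leukocyte markers 1 of 8 was tested, CD14. The sums were 2.29 to 2.59 FPKM in control, 1.48 to 2.21 under BSGL and 0.455 to 0.846 under RSGL, with CD3D, CD3E, LST1 and TYROBP at 0 in control. Of plasmacytoid dendritic cell markers 1 of 4 was tested, with sums of 1.10 to 1.18, 1.10 to 1.25 and 0.658 to 0.794 FPKM. Of fibroblast markers 3 of 6 were tested, with sums of 9.91 to 11.2, 10.2 to 11.0 and 7.87 to 8.13 FPKM, and 0 of 4 endothelial markers were. The part of these shifts in the results below was not tested. In bulk RNA, fewer cells of a kind and less RNA per cell cannot be told apart.

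The response element gives these genes a shared feature that can be read from their promoters. RefSeq promoter windows (GRCh38.p14, 250 bases before to 50 after the start of transcription) were matched for 33 of the 43 genes. The core of the element, GAAA followed by 2 bases of any kind and another GAAA on either strand, was in 20 of the 33 windows (60.6%) and in 791 of all 22781 windows (3.47%). Shown first are upstream stretches of the 4 genes with a core that changed most under RSGL, then that of TRIM25, which has none in its window and had the largest rise. Each was cut to bases outside annotated exons, or to 30 bases around the first core where an exon reached it. Capitals mark the core, which reads TTTC, 2 bases and TTTC where it lies on the other strand, and each sequence is given 5′ to 3′ on the strand of its gene.
IFI6 at chr1:27672219-27672442, minus strand: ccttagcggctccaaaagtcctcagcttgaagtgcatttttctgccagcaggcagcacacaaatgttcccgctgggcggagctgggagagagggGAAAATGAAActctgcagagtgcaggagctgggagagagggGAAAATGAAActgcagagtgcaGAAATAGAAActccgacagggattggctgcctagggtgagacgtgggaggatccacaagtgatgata
IFIT1 at chr10:89392373-89392545, plus strand: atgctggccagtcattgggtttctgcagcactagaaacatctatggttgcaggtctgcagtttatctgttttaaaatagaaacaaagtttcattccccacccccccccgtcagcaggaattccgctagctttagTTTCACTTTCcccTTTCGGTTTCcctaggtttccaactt
HERC5 at chr4:88456987-88457016, plus strand: attacagTTTCCTTTTCCTTTTCgattccg
IFIH1 at chr2:162318821-162318850, minus strand: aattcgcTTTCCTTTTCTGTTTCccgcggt
TRIM25 at chr17:56914081-56914185, minus strand: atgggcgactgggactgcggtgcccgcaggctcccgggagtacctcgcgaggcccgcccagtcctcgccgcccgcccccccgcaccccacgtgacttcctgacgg
The IFI6 stretch holds 3 cores and the IFIT1 stretch 2. In the HERC5 and IFIH1 stretches 2 cores overlap.

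Under BSGL no interferon response gene was called as different from control. Over the genes tested the count was 0 of 38, against 0.0861% of all genes tested, and limma-voom on the recovered fragments also called 0. At an unadjusted p under 0.05 there was 1 of the 38, against 6.71% of all genes tested. Changes of the 36 tested genes on main chromosomes ran from -0.21 to 0.11, with 95% intervals inside 0.3 either way for 34 of the 36. The BSGL libraries lay wholly above control for 0 of the 38 and wholly below for 1, against 7.16% and 5.63% of all genes tested. The gene with the unadjusted p under 0.05 was IFI44L, of unknown biochemical function, at 1.35, 1.34 and 1.34 FPKM in control and 0.927, 1.01 and 1.14 under BSGL (log2 change -0.21, SE 0.0744, adjusted p = 0.602).

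Under RSGL most of the set fell, while a few of its members rose. Of the 38 genes tested 27 were called, 23 lower and 4 higher, against 54.8% of all genes tested that were called, 27.6% lower and 27.2% higher. Calls in both directions were thus common in this comparison, and the split of the members between lower and higher differed from the background. The members were chosen with earlier results of these data known, so the split is a description and not a test. The median change of the 38 was -0.36, against -0.00085 for all genes tested. Among the 25 genes with a mean of at least 5 FPKM, 17 were called, 13 lower and 4 higher, and the median was -0.17. The background shares and median above belong to the main filter and not to this one. OAS2, MX2, IFI44L and IRF7 were under 1 FPKM in every RSGL library and passed the filter through the other groups. A change of at least 0.5 was called for 11 of the 38, against 15.2% of all genes tested. The RSGL libraries lay wholly below control for 23 of the 38 and wholly above for 5, against 30.8% and 30.4% of all genes tested.

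**Figure D1:**
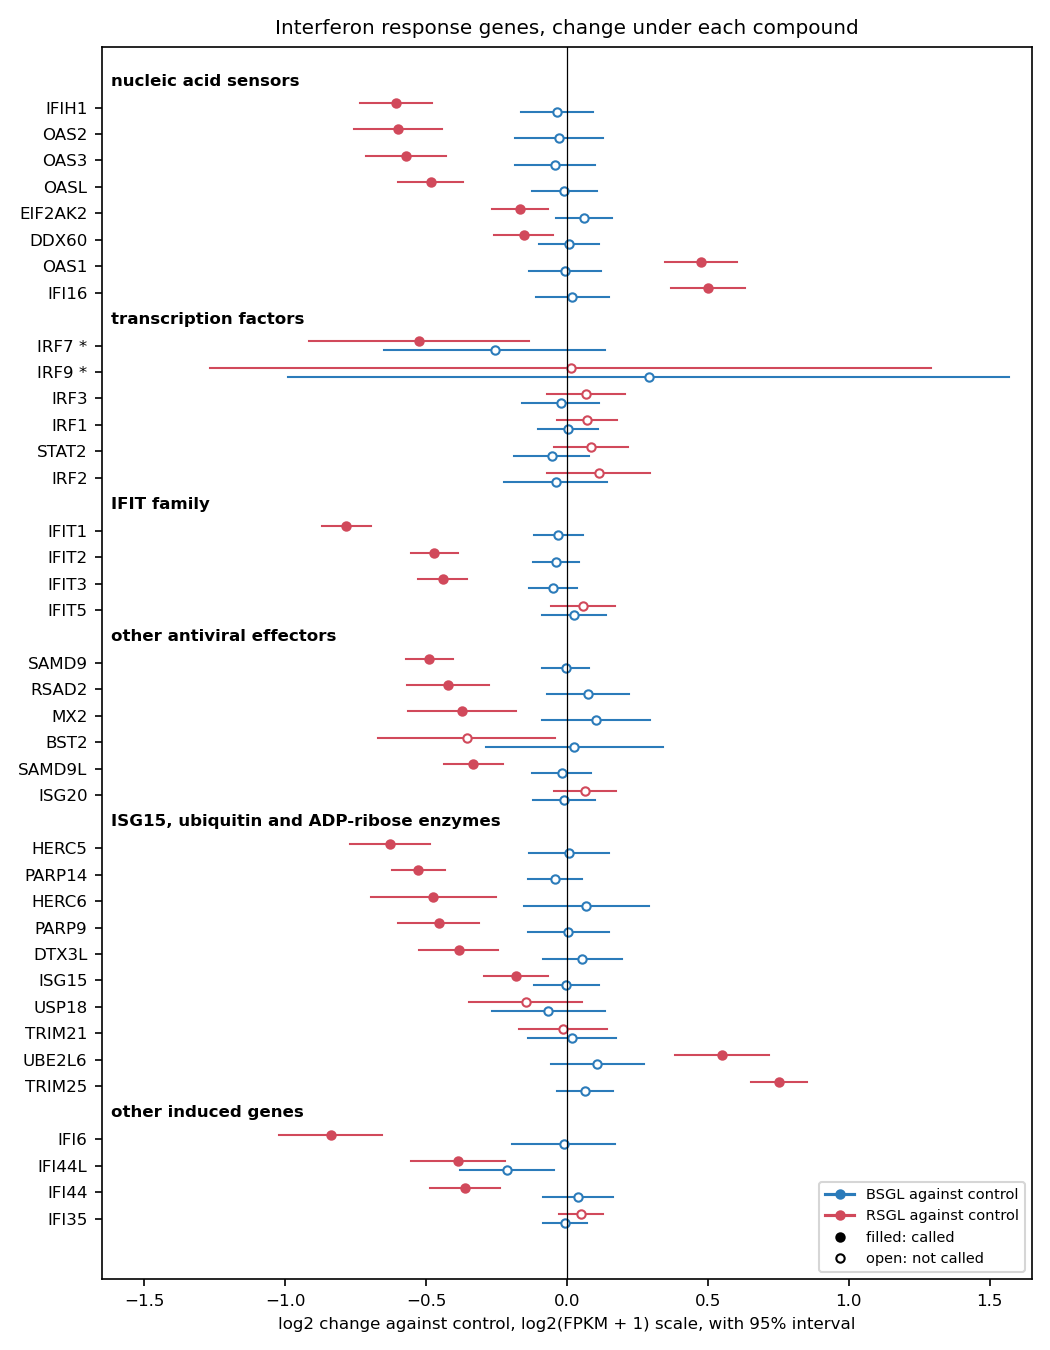
Log2 change against control, on the log2(FPKM + 1) scale, of the 38 tested genes by role under BSGL (blue) and RSGL (red), with 95% intervals. Filled points were called, open points were not, and a star marks rows off the main chromosomes. All BSGL points are open, and the called RSGL points lie on the left for 23 genes and on the right for 4.

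Sensors of foreign nucleic acid were called in all 8 cases, 6 lower and 2 higher, with a median of -0.33. Over all genes tested 54.8% were called under RSGL, 27.6% lower and 27.2% higher, which is the background of each role below. The share of sensors called higher is close to it. IFIH1, the MDA5 helicase that binds long double-stranded RNA, read 5.51, 5.26 and 5.68 FPKM in control, 5.16, 5.19 and 5.63 under BSGL, and 3.55, 3.17 and 3.07 under RSGL. Each RSGL library lay below all 6 others, and the change against control was -0.61 (SE 0.0570, adjusted p = 1.26e-05). OASL, a relative of the oligoadenylate synthetases that lacks their enzyme activity, was the most abundant sensor. Its levels were 88.2, 88.6 and 96.4 FPKM in control, 85.2, 93.0 and 93.1 under BSGL, and 65.8, 61.4 and 67.2 under RSGL, a fall of 0.48 (SE 0.0514, adjusted p = 3.06e-05). IFI16, a sensor of DNA in nucleus and cytoplasm, went the other way, from 5.47, 5.58 and 5.04 FPKM in control and 5.40, 5.02 and 5.93 under BSGL to 8.15, 7.92 and 7.90 under RSGL. The rise was 0.50 (SE 0.0582, adjusted p = 5.62e-05), without overlap between RSGL and the other libraries. The smallest called changes were those of EIF2AK2, the kinase PKR that halts translation on double-stranded RNA, and of the helicase DDX60. Means of EIF2AK2 were 10.3 FPKM in control and 9.06 under RSGL (-0.17, adjusted p = 0.00899), and those of DDX60 were 4.76 and 4.18 (-0.15, adjusted p = 0.0188). The DDX60 call was lost without control library 1 (adjusted p = 0.0533) or 2 (0.0671) and without RSGL library 2 (0.0541) or 3 (0.0537).

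The 3 oligoadenylate synthetase genes, whose products activate the ribonuclease RNase L, sit side by side on chromosome 12 and did not move together. OAS3 (chr12:112938433-112973251, GRCh38) had 30.2, 28.7 and 29.4 FPKM in control, 26.9, 30.6 and 28.1 under BSGL, and 20.4, 20.5 and 17.6 under RSGL (-0.57, SE 0.0634, adjusted p = 4.02e-05). OAS2, which ends the cluster, had 1.85, 1.70 and 1.78 FPKM in control, 1.73, 1.76 and 1.67 under BSGL, and 0.828, 0.959 and 0.711 under RSGL (-0.60, SE 0.0699, adjusted p = 5.62e-05). In both genes all RSGL libraries were lower than all others. OAS1, which ends 6.24 kb before OAS3, was chosen for its full values after they were seen. It had 14.9, 13.8 and 12.9 FPKM in control, 14.1, 13.2 and 14.0 under BSGL, and 20.5, 18.6 and 19.8 under RSGL, a rise of 0.48 (SE 0.0572, adjusted p = 7.05e-05). The interval of OAS1, 0.35 to 0.60, lies on the other side of 0 from those of OAS3, -0.71 to -0.43, and OAS2, -0.76 to -0.44. The OAS3 window holds 2 cores of the response element and the OAS1 window 0, counting only cores with 2 bases between the GAAA repeats.

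**Figure D2:**
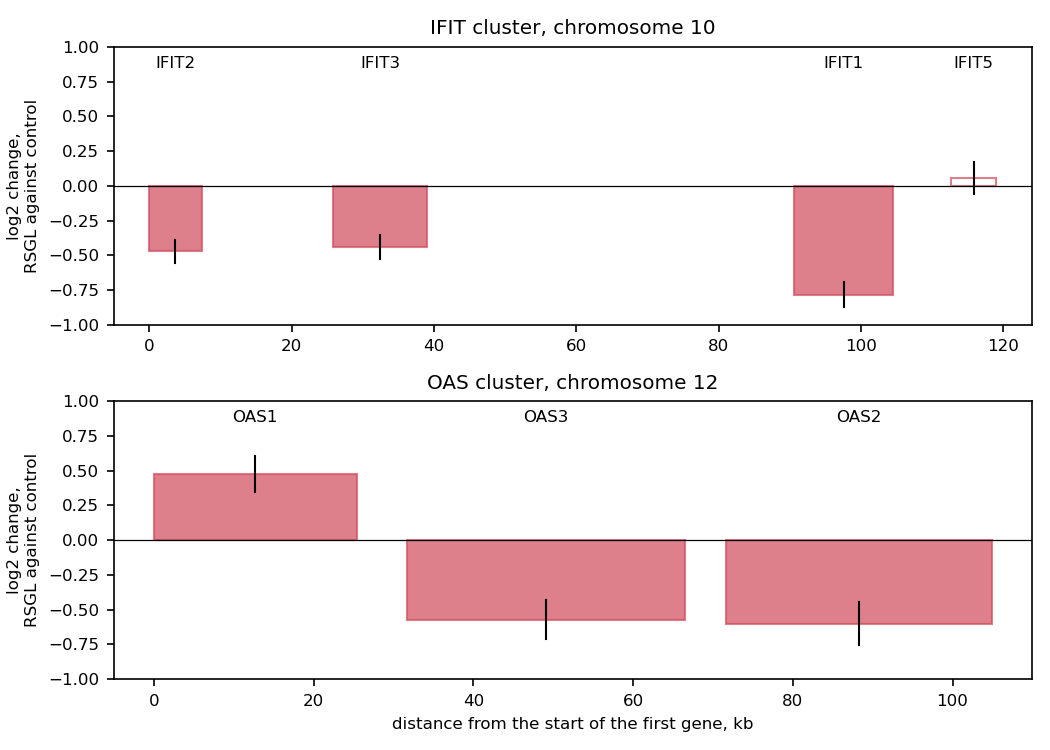
Log2 change under RSGL against control for the IFIT genes of chromosome 10 and the OAS genes of chromosome 12, drawn at their distance in kb from the start of the first gene, with the gene's length as the width and 95% intervals as black lines. Filled bars were called. IFIT5 lies 8.08 kb from IFIT1 and was not called, and OAS1 stands above 0 beside OAS3 and OAS2 below it.

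The transcription factors that drive the response were mostly not called under RSGL. Of the 6 factors 1 was called, from an uncertain row, and the median change was 0.07. IRF3, the factor that acts first after sensing and induces IFNB1, read 26.3, 24.3 and 23.0 FPKM in control, 23.0, 24.0 and 25.5 under BSGL, and 26.8, 23.9 and 26.7 under RSGL. The groups overlapped, and the interval of the RSGL change ran from -0.07 to 0.21 (adjusted p = 0.383). IRF1, a factor that binds the same kind of element, read 13.2, 12.5 and 12.5 FPKM in control, 12.2, 12.9 and 13.1 under BSGL, and 14.2, 12.9 and 13.1 under RSGL, with an interval from -0.04 to 0.18 (adjusted p = 0.234). Intervals of the repressor IRF2 (-0.07 to 0.29) and of STAT2 (-0.05 to 0.22), a subunit of the complex that binds the response element, also included 0. The IRF3 row overlaps BCL2L12 on the opposite strand by 804 bases, and the sources used here do not give the strand setting of the counting. IRF7, the factor that amplifies the response, was called lower from an uncertain row. Its values were 0.790, 1.29 and 1.03 FPKM in control, 0.467, 1.21 and 0.508 under BSGL, and 0.201, 0.562 and 0.487 under RSGL (-0.53, SE 0.175, adjusted p = 0.0277). The IRF7 call was lost without control library 2 (adjusted p = 0.0962) or 3 (0.0600) and without RSGL library 1 (0.0974), and also with no filter on low values (0.0722) or with quantile normalization (0.0683). IRF9, the DNA-binding subunit, varied too much within groups to be compared, with 1.81, 0.0607 and 0.219 FPKM in control alone.

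In the IFIT family, whose proteins bind viral RNA and block its translation, 3 of 4 genes fell and IFIT5 did not. IFIT1 (chr10:89392546-89406487) had 32.1, 33.4 and 34.1 FPKM in control, 31.3, 33.1 and 33.1 under BSGL, and 19.3, 18.2 and 19.1 under RSGL. That is a fall of 0.78 (SE 0.0391, adjusted p = 1.52e-07), with every RSGL library below the 6 others. IFIT2 had 42.8, 45.8 and 45.5 FPKM in control, 42.6, 44.0 and 43.7 under BSGL, and 33.1, 31.5 and 31.3 under RSGL (-0.47, SE 0.0365, adjusted p = 3.24e-06). IFIT3, which binds IFIT1 and stabilises it, had 53.7, 55.5 and 56.3 FPKM in control, 51.9, 54.8 and 53.1 under BSGL, and 42.1, 38.7 and 40.3 under RSGL (-0.44, SE 0.0382, adjusted p = 6.94e-06). The RSGL libraries again lay below all others in both genes. IFIT5, which starts 8.08 kb past the end of IFIT1, had group means of 9.10, 9.28 and 9.52 FPKM for control, BSGL and RSGL, and its interval under RSGL ran from -0.06 to 0.17 (adjusted p = 0.378). The IFIT5 window nonetheless holds 3 cores of the response element, as many as that of IFI6. Overlapping lncRNAs on the opposite strand of IFIT2, IFIT3 and IFIT5 were listed at means of at most 0.578 FPKM.

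Among the other antiviral effectors, 4 of the 6 tested fell and none rose. SAMD9, a restriction factor of poxviruses, read 8.29, 8.49 and 8.16 FPKM in control, 8.17, 8.31 and 8.36 under BSGL, and 5.70, 5.68 and 5.53 under RSGL, a fall of 0.49 (SE 0.0368, adjusted p = 2.66e-06). Its neighbour SAMD9L fell by 0.33 (adjusted p = 0.000199), RSAD2, the radical enzyme viperin, by 0.42 (adjusted p = 0.000354), and MX2, a dynamin-like GTPase that restricts HIV, by 0.37 (adjusted p = 0.00424). ISG20, an exonuclease that degrades RNA, stood at 5.44, 5.14 and 5.60 FPKM in control, 5.50, 5.12 and 5.42 under BSGL, and 5.45, 5.91 and 5.70 under RSGL. The ISG20 groups overlapped (0.06, SE 0.0487, adjusted p = 0.294). BST2, the tetherin that holds budding virions at the cell surface, had group means of 1.89 FPKM in control and 1.26 under RSGL and missed the threshold (-0.36, adjusted p = 0.0535), with adjusted p from 0.0298 to 0.183 over the alternative settings. MX1 and CMPK2 were just under the filter. MX1, the GTPase that traps viral nucleocapsids, had 0.828, 0.907 and 1.03 FPKM in control and 0.415, 0.373 and 0.356 under RSGL. CMPK2, a mitochondrial nucleotide kinase, had 0.811, 1.02 and 0.820 FPKM in control and 0.292, 0.274 and 0.256 under RSGL. Without the filter both were called lower (MX1 adjusted p = 0.00101, CMPK2 adjusted p = 0.000439). CMPK2 and RSAD2 overlap head to head by 903 bases.

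**Figure D3:**
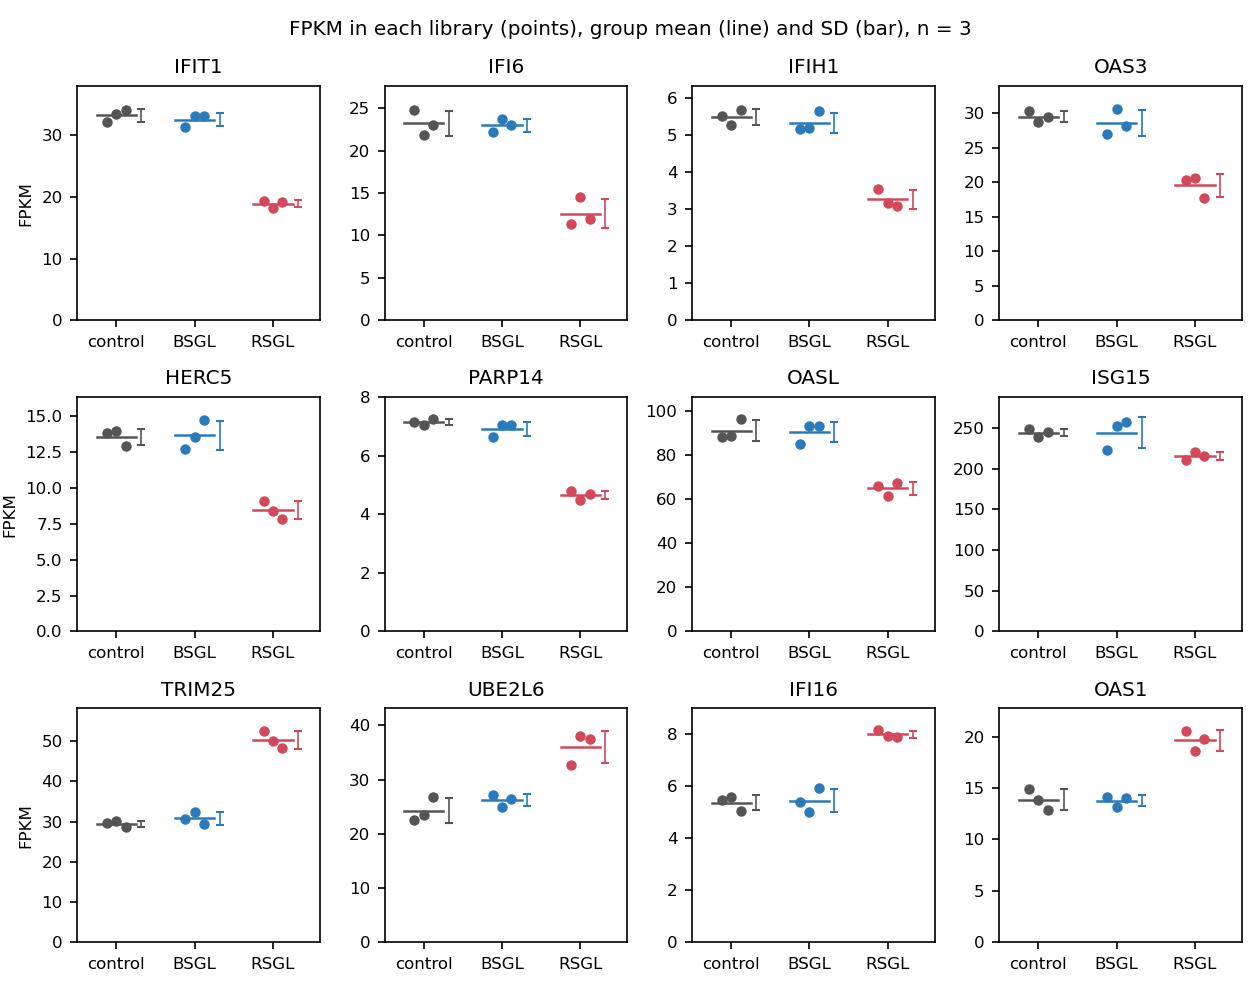
FPKM of 12 genes in each library (points), with the group mean (line) and SD (bar), n = 3 per group, on axes that start at 0. In the first 8 panels, IFIT1 to ISG15, the RSGL points lie below those of the other groups, and in the panels of TRIM25, UBE2L6, IFI16 and OAS1 they lie above.

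Genes of ISG15, ubiquitin and ADP-ribose enzymes went both ways, with 6 lower, 2 higher and 2 not called of 10. ISG15 is a ubiquitin-like protein that is joined to others by the E2 enzyme UBE2L6 and the ligase HERC5, and TRIM25 is a ligase that ubiquitinates the sensor RIG-I. ISG15 was the most abundant of the 43 genes, with 248, 239 and 245 FPKM in control, 223, 252 and 258 under BSGL, and 210.5, 221 and 215 under RSGL. The fall was small (-0.18, SE 0.0509, adjusted p = 0.0130), though the RSGL libraries were lower than all 6 others. HERC5 had 13.8, 14.0 and 12.9 FPKM in control, 12.7, 13.5 and 14.7 under BSGL, and 9.06, 8.41 and 7.82 under RSGL (-0.63, SE 0.0632, adjusted p = 2.06e-05). UBE2L6 rose by contrast, from 22.6, 23.4 and 26.9 FPKM in control and 27.2, 25.0 and 26.4 under BSGL to 32.6, 37.9 and 37.6 under RSGL (0.55, SE 0.0738, adjusted p = 0.000158). The E2 enzyme and the ligase of ISG15 conjugation thus changed in opposite directions. USP18, the protease that removes ISG15 and also curbs the receptor, had means of 5.16 FPKM in control and 4.58 under RSGL and was not called (-0.15, interval -0.35 to 0.05, adjusted p = 0.195).

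TRIM25 (chr17:56887909-56914048) had the largest rise of the set. It read 29.5, 30.0 and 28.7 FPKM in control, 30.7, 32.3 and 29.3 under BSGL, and 52.5, 50.0 and 48.2 under RSGL. The change was 0.75 (SE 0.0448, adjusted p = 5.07e-07), and the RSGL libraries lay above all others. TRIM21, a ligase that is also a receptor for antibodies inside the cell, was not called (-0.02, interval -0.17 to 0.14, adjusted p = 0.870). HERC6, a relative of HERC5 that ends 13.5 kb before it, had 4.31, 5.82 and 4.84 FPKM in control, 5.12, 5.99 and 4.70 under BSGL, and 3.37, 3.07 and 3.42 under RSGL (-0.48, SE 0.0989, adjusted p = 0.00248). PARP14, a mono-ADP-ribosyltransferase, had 7.13, 7.06 and 7.25 FPKM in control, 6.62, 7.05 and 7.06 under BSGL, and 4.78, 4.49 and 4.69 under RSGL (-0.53, SE 0.0424, adjusted p = 4.18e-06). In HERC6 and PARP14 no RSGL library reached any of the others. PARP9 and DTX3L, which form 1 ligase complex and are read from opposite strands with an overlap of 339 bases, fell by 0.46 (adjusted p = 0.000200) and 0.39 (adjusted p = 0.000553).

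Of the other induced genes, 3 of the 4 tested fell. IFI6 (chr1:27666061-27672213), a membrane protein that limits flavivirus replication and apoptosis, had the largest fall of the 38. Its levels were 24.8, 21.8 and 23.0 FPKM in control, 22.2, 23.7 and 23.0 under BSGL, and 11.3, 14.5 and 11.9 under RSGL (-0.84, SE 0.0811, adjusted p = 1.85e-05). The neighbours IFI44 and IFI44L fell by 0.36 (adjusted p = 0.000373) and 0.39 (adjusted p = 0.00152). IFI35, a partner of the protein NMI, had 29.9, 28.6 and 29.9 FPKM in control, 30.5, 28.9 and 28.6 under BSGL, and 30.7, 30.6 and 30.2 under RSGL. The RSGL libraries lay just above control and overlapped with BSGL, and the gene was not called (0.05, SE 0.0349, adjusted p = 0.273). XAF1, a proapoptotic protein, was too low to be tested, and was called lower under RSGL by limma without the filter (adjusted p = 0.00285). It had 53 recovered fragments over the 3 control libraries, 59 over BSGL and 3 over RSGL, a ratio of RSGL to control of 0.0584 after scaling (exact 95% interval 0.0117 to 0.180, which covers counting error only). EPSTI1, which is named for its induction by stromal cells, had 8, 6 and 0 fragments in the same order, where a count of 0 allows up to 3. IFI27 had 29, 15 and 21 fragments on its uncertain row.

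Read against the promoters, more of the genes with a core of the response element were called lower than of those without, which is a description with no test. Of the 18 tested genes with a core in the window 14 were called lower and 0 higher, with a median change of -0.39. Of the 11 without a core 4 were called lower (HERC6, PARP9, RSAD2 and SAMD9L) and 4 higher, which were TRIM25, UBE2L6, IFI16 and OAS1, and the median was 0.07. Outside the set, 33.2% of 226 tested genes with a core were called lower and 29.5% of 9114 without. IFIT5, ISG20, TRIM21 and BST2 were not called although their windows hold the core. The longer form, with a C after the second GAAA, was in 17 of the 33 windows and in 0.768% of all windows. Of the tested members, 12 of 15 with the longer form were called lower and 6 of 14 without it. The medians were -0.39 and 0.02. With the shorter core in upstream bases only these counts were the same, and the medians were -0.44 and 0.02. Outside the set, 46.2% of 52 tested genes with the longer form were called lower, with a median of -0.11, and 29.5% of 9288 without it. The STAT dimer core TTCNNNGAA, which is its own reverse complement, was in 7 of the 33 (21.2%) and in 7.73% of all windows. Of the tested members, 2 of 6 with it were called lower, with a median of -0.05. Without it 16 of 23 were called lower, with a median of -0.39. Outside the set, 29.85% of 583 tested genes with it were called lower and 29.55% of 8757 without it. A match of letters is a description and not a binding site. Cores with other than 2 bases between the GAAA repeats were not searched, so a window without a match may still hold the element. Each gene had 1 window, and some windows lie away from the start of the counted row. The IFI16 window begins at 159008741 and its row at 158999968, and those of ISG20 begin at 88638766 and 88635614. Other starts of these genes were not searched.

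**Figure D4:**
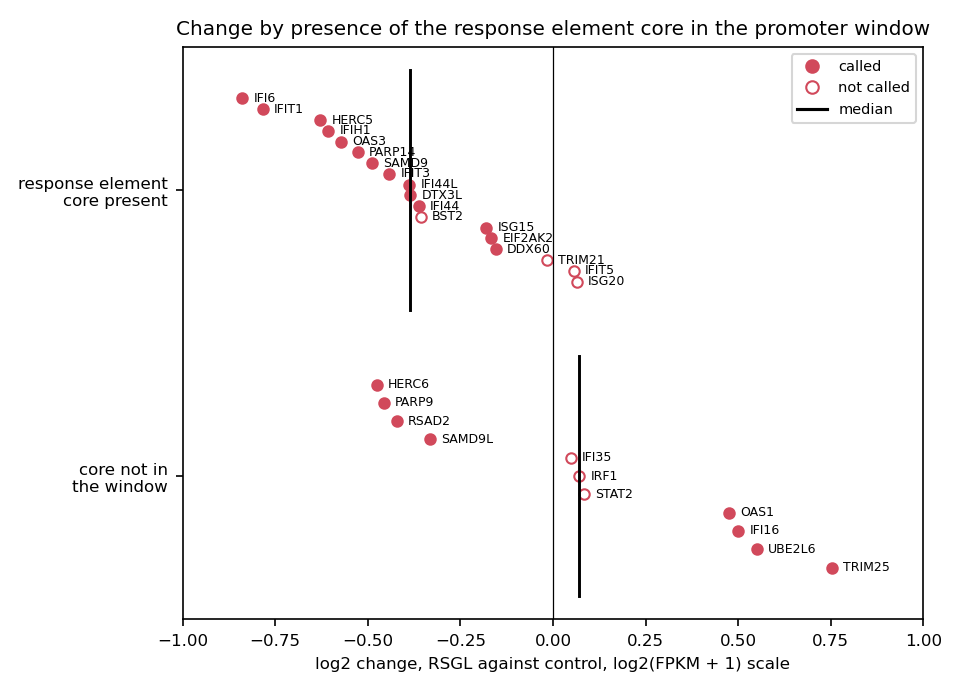
Log2 change under RSGL against control of the 29 tested genes with a promoter window, split by whether the window holds the response element core on either strand, with medians as black lines. Filled points were called. The 18 genes with the core have a median of -0.39, and the 4 genes that rose are all in the lower row, without it.

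Neighbours among the members changed alike in several clusters under RSGL, and in part unlike in the IFIT and OAS clusters. There were 14 pairs of members less than 100 kb apart, which share their clusters and are not independent. IFI44L and IFI44, SAMD9 and SAMD9L, HERC6 and HERC5, and PARP9 and DTX3L each held 2 genes that were both called lower. So did the pairs among IFIT1, IFIT2 and IFIT3, and the pair of OAS3 and OAS2. With 23 of the 38 tested members called lower, such pairs can be common, and no share over other pairs is given. The pairs of IFIT5 with IFIT1 and IFIT3 set a gene that was not called beside genes that fell, and those of OAS1 with OAS3 and OAS2 set a rise beside falls. Near-identical stretches between related genes can share reads, and the values of such families are uncertain to that extent.

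At the same dose and time the RSGL libraries differed from those of BSGL over most of the set. The genotype tag differs between these groups too, so the compound and the tagged cells cannot be told apart. RSGL against BSGL was the only pair of compounds, and it called 26 of the 38 genes tested, 22 lower and 4 higher, against 54% of all genes tested, 27.5% lower and 26.5% higher. The median difference was -0.29, against -0.0056 for all genes tested. It was -0.18 for the 25 genes with a mean of at least 5 FPKM, a filter for which no background median is given. This comparison shares the RSGL libraries with that against control, and the values are set side by side only. The RSGL libraries lay wholly below BSGL for 23 of the 38 and wholly above for 4, against 31.4% and 29.8% of all genes tested. IFIT1 differed between RSGL and BSGL by -0.75 (SE 0.0391, adjusted p = 2.27e-07), beside -0.78 between RSGL and control. IFI6 differed by -0.83 (SE 0.0811, adjusted p = 2.21e-05), HERC5 by -0.64 (SE 0.0632, adjusted p = 2.05e-05) and TRIM25 by 0.69 (SE 0.0448, adjusted p = 1.03e-06). OAS1 was higher under RSGL than under BSGL by 0.48 (adjusted p = 6.89e-05), while OAS3 differed by -0.53 (adjusted p = 7.39e-05). BST2 was called here (-0.38, adjusted p = 0.0418), with means of 1.94 FPKM under BSGL and 1.26 under RSGL, and lost that call without BSGL library 1 (adjusted p = 0.0708) or 2 (0.150) and without RSGL library 1 (0.146) or 3 (0.0674). ISG15 (-0.18, adjusted p = 0.0140) lost its call without BSGL library 2 (adjusted p = 0.0559) or 3 (0.0569), and DDX60 (-0.16, adjusted p = 0.0156) without BSGL library 2 (0.0580). IFI44L, for which BSGL lay between control and RSGL, was not called (-0.17, interval -0.34 to -0.01, adjusted p = 0.0746). It was called with no trend or robust option (adjusted p = 0.0171), with protein-coding genes only (0.0327) and with limma-voom (-0.35, adjusted p = 0.0463).

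The ligands above these genes were low and fell with RSGL. Of 21 interferon genes, which include IFNG of type II at 0 in all libraries, 5 passed the filter and all 5 were called lower, with a median of -0.84. Over all genes tested 27.6% were called lower and 27.2% higher under RSGL, and this holds as the background of each list that follows. IFNL1, a type III interferon that uses a receptor of its own and the same STAT factors, had 6.25, 6.55 and 4.24 FPKM in control, 4.49, 5.65 and 6.11 under BSGL, and 2.42, 2.74 and 2.88 under RSGL (-0.84, SE 0.148, adjusted p = 0.00135). The remaining 4 are named here after their values were seen, and all had RSGL libraries under 1 FPKM, so that they passed through the other groups. IFNB1, the type I interferon made first by most cells, had 1.51, 1.42 and 1.90 FPKM in control, 1.51, 1.06 and 1.57 under BSGL, and 0.529, 0.781 and 0.829 under RSGL (-0.61, SE 0.115, adjusted p = 0.00136). IFNE, an epithelial type I interferon, went from a mean of 1.10 to 0.446 FPKM (adjusted p = 0.00180). IFNL2 and IFNL3 are near-identical copies and their split is uncertain. IFNL2 had means of 3.16 FPKM in control and 0.292 under RSGL (adjusted p = 6.13e-07), and IFNL3 had 2.19 and 0.342 (adjusted p = 0.000309).

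Receptor genes rose where they were called. Of 6 receptor subunits 4 were called higher and none lower, with a median of 0.27, and 1 of the 4, IFNLR1, passed the filter only through RSGL, where it is high. IFNAR1 had means of 6.31 FPKM in control, 6.36 under BSGL and 7.50 under RSGL (0.22, adjusted p = 0.00473), and IFNAR2 had 7.79, 8.27 and 9.67 (0.28, adjusted p = 0.00110). IL10RB, a subunit shared by the receptors of type III interferon and interleukin 10, rose from 13.1 to 15.9 FPKM (0.26, adjusted p = 0.000264). IFNLR1, the private subunit for type III interferon, named after its values were seen, had means of 0.743 FPKM in control, 0.723 under BSGL and 1.74 under RSGL, with all 6 libraries of the first 2 groups under 1 FPKM.

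Between receptor and promoter, 4 of 7 transmission genes fell and none rose, with a median of -0.29. The share called in either direction is close to the 54.8% of all genes tested. STAT3, which also serves interleukin 6, had means of 45.1 FPKM in control, 44.8 under BSGL and 32.7 under RSGL (-0.45, adjusted p = 9.84e-07). The coactivators CREBBP and EP300 fell by 0.40 (adjusted p = 0.000546) and 0.32 (adjusted p = 0.00130). Of 7 inhibitors tested 3 fell and 1 rose, again close to the 54.8% called of all genes tested, so the count is no result about the inhibitors. The phosphatases PTPN6 and PTPN2 fell by 0.40 (adjusted p = 0.000313) and 0.24 (adjusted p = 0.00397), and PIAS1, a SUMO ligase that restrains STAT factors, by 0.20 (adjusted p = 0.00531).

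Genes of sensing upstream of interferon fell in 7 of 11 tested cases and rose in 1, with a median of -0.34. The riser was TICAM1, the adaptor of the endosomal RNA receptor TLR3, with means of 2.89 FPKM in control, 3.06 under BSGL and 6.00 under RSGL (0.85, SE 0.0670, adjusted p = 3.75e-06). TREX1, a nuclease that clears cytosolic DNA, fell by 0.51 (adjusted p = 0.000292), and IKBKE, a kinase that activates IRF3 and IRF7, by 0.49 (adjusted p = 1.94e-05). DDX58, which encodes the sensor RIG-I that TRIM25 modifies, was named after its values were seen and went from 15.0 to 10.5 FPKM (-0.48, adjusted p = 8.12e-06), opposite to TRIM25.

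A further list of 32 interferon-induced genes outside the set had 29 tested, of which 16 fell and 5 rose, with a median of -0.20. IFITM1, among the 16, was under 1 FPKM in every RSGL library and passed the filter through the other groups. IFITM2, a membrane protein that blocks viral entry, had 102, 113 and 103 FPKM in control, 97.6, 109 and 109 under BSGL, and 64.6, 58.9 and 65.4 under RSGL (-0.74, SE 0.0600, adjusted p = 4.33e-06). Its near relative IFITM3 fell by 0.63 (adjusted p = 0.0181), a call that was lost without control library 3 and without RSGL libraries 1 or 2 (highest adjusted p = 0.0593). CASP4, the caspase that detects cytosolic lipopolysaccharide, rose from a mean of 8.14 to 13.4 FPKM (0.65, adjusted p = 8.01e-05). Genes of antigen presentation were called higher in 5 of 10 tested cases and lower in 1, but 14 of the 19 matched rows are off the main chromosomes and uncertain. They include HLA-C (0.29, adjusted p = 0.000642). PSMB10, an immunoproteasome subunit on a main chromosome, fell by 0.25 (adjusted p = 0.0136), a call lost without control library 1 or RSGL library 2 (highest adjusted p = 0.0533). Targets better known for interferon gamma went both ways, with 4 of 8 lower and 3 higher. Of the 8, GBP4, CXCL10 and CXCL11 were under 1 FPKM in every RSGL library and passed the filter through the other groups. WARS, a tryptophan tRNA synthetase, rose from 45.5 to 68.7 FPKM (0.59, adjusted p = 2.18e-07) and GBP3, a guanylate-binding protein, from 3.69 to 5.07 (0.37, adjusted p = 0.00440). Under BSGL, 0 genes were called in each of these lists from ligands to interferon gamma targets. Over all genes tested 0.0861% were called, so the count is no result about these lists.

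**Figure D5:**
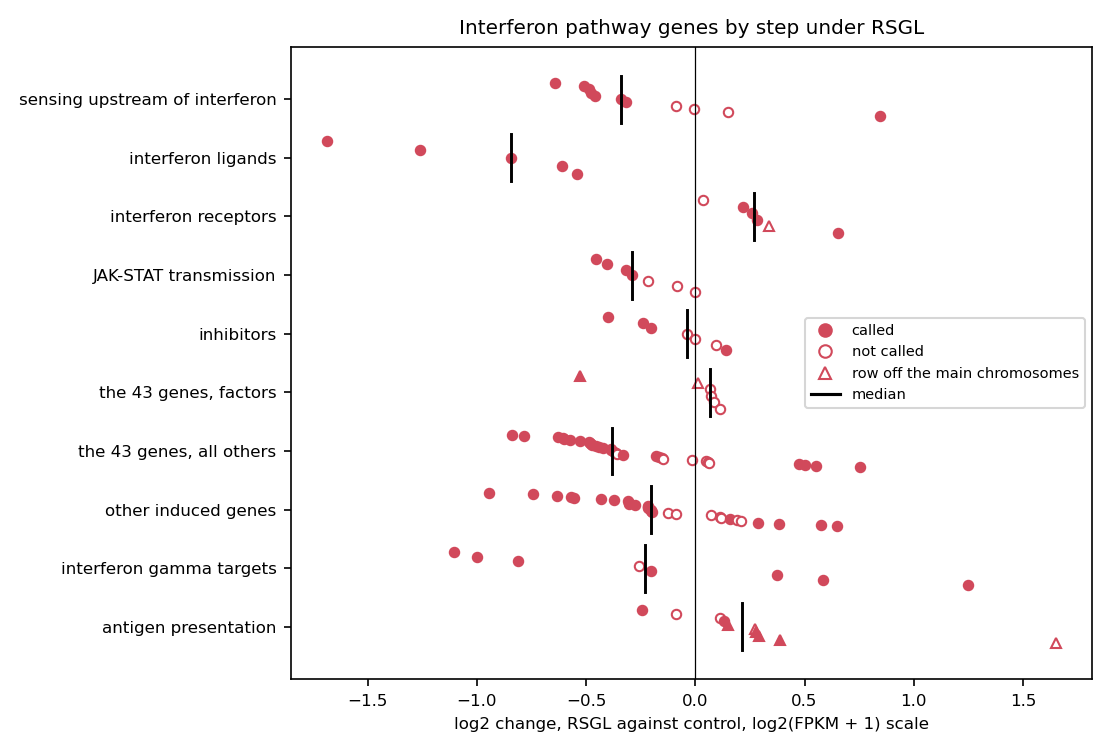
Log2 change under RSGL against control, on the log2(FPKM + 1) scale, of the tested genes at each step of the interferon pathway, with medians as black lines. Filled points were called, open points were not, and triangles are rows off the main chromosomes. The 5 ligands lie below 0 with a median of -0.84, and 4 of the 6 receptor genes were called above it. The ligands other than IFNL1 passed the filter through control and BSGL, and the receptor gene IFNLR1 only through RSGL.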

How the data were processed

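RNA from 9 libraries, 3 per group, was extracted with TRIzol and sequenced from NEBNext Ultra libraries, per the labels' protocols. DESeq2 1.16.1, featureCounts 1.5.0-p3 and HISAT2 2.0.5 are named, with no roles, per the submitters' processing notes. The authors deposited FPKM per gene, with gene lengths and positions of GRCh38, per the file headers. Values below 300 fragments were whole multiples of 1 fragment (100% within 0.01), which gave the fragments per gene. Columns with no compound in their name were taken as the control libraries.

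Genes that reached 1 FPKM in 3 or more of the 9 libraries were tested on log2(FPKM + 1) in R 4.3.3 with statmod 1.5.0 and limma 3.58.1, using 1 term per group, trend and robust empirical Bayes, over all 9 libraries. The script was tested on simulated data. Errors are SD or model SE with n = 3 libraries per group. Intervals cover 95% and the spread between libraries. The members and gene lists were chosen with earlier results of these data known. Full values are given by rule for members called with a log2 change of at least 0.5 and for the 2 most abundant of each role. Other lists name up to 3 called genes of at least 5 FPKM with the largest changes. Other pseudocounts, filters, scalings, models and left-out libraries were tried. Some genes of these lists are not reported here.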

Additional observations from a re-analysis of the deposited data

How the results depend on the processing

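The count of genes called was 0 for BSGL against control in every alternative run. For RSGL against control it was 27 and ranged from 26 to 27 with 1 library left out, and for RSGL against BSGL it was 26 and ranged from 23 to 26. With no filter on low values 43 genes were tested, and the counts were 29 against control and 28 against BSGL. They were 28 and 26 with a common sum of FPKM, and 28 and 27 with protein-coding genes only. Requiring a mean of at least 5 FPKM leaves fewer genes to test and gave 17 calls in either comparison. Shares called over all genes are given in this report only for the main filter. The median change of the members under RSGL against control was -0.17 with that filter, -0.44 with a pseudocount of 0.1, -0.41 with 0.5 and -0.45 with limma-voom. Against BSGL the medians were -0.18, -0.42, -0.39 and -0.42 in the same order, and -0.39 to -0.24 with 1 library left out. The cause of these shifts was not tested. Of the 27 members called against control 25 were called in every alternative in which they were tested, the exceptions being DDX60 and IRF7. Of the 26 called against BSGL 23 were, the exceptions being ISG15, DDX60 and BST2. BST2 also lost its call with no filter, with no trend, with limma-voom and with the replicate block. In RSGL against BSGL, calls were gained by IFI44L under 3 settings, by STAT2 with limma-voom or without RSGL library 3, and by IFI35 with quantile normalization. IRF7 also lost its call with no filter and with quantile normalization. None of the called values changed sign. The replicate block gave 0, 27 and 25 calls for BSGL against control, RSGL against control and RSGL against BSGL. Whether samples with the same number share a day or batch is not said in the labels. Correlations of their deviations ran from -0.212 to 0.121, against -0.108 to 0.154 for samples with different numbers. These correlations do not show whether the samples were paired. The core of the response element was in 16 windows with upstream bases only and in 17 with the longer form. Depth limits XAF1, EPSTI1 and IFI27, which had at most 59 fragments per group.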

Other observations

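A wide spread like that of IRF9 was seen in some other genes on the same unplaced or alternate sequence. PSME1, a proteasome activator subunit, had 44.1, 36.0 and 0.868 FPKM in the 3 control libraries, and CHMP4A, a subunit of the membrane-remodelling complex ESCRT-III, had 13.1, 0.319 and 7.27. RNF31, a subunit of the linear ubiquitin ligase that lies next to IRF9, had 2.72, 0.216 and 0.158 FPKM in control, 0.533, 2.01 and 2.12 under BSGL, and 0.732, 0.513 and 1.08 under RSGL. Other genes there varied less, such as PSME2 with 33.4, 40.2 and 35.1 FPKM in control and DHRS4 with 3.70, 3.82 and 4.88. These genes were chosen after their values were seen. The coefficient of variation of IRF9 in control was 139%, against a median of 4.01% for the 36 tested members on main chromosomes.

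The chemokine genes CXCL10 and CXCL11, which attract activated T cells and are induced by interferons of all types, were low and fell under RSGL. They too were chosen after their values were seen. CXCL10 had 1.97, 1.93 and 2.94 FPKM in control, 2.13, 1.90 and 2.26 under BSGL, and 0.415, 0.276 and 0.901 under RSGL (limma, log2 change -1.11, SE 0.158, adjusted p = 0.000256). CXCL11 had 2.39, 2.03 and 2.46 FPKM in control, 2.14, 2.31 and 2.13 under BSGL, and 0.597, 0.627 and 0.716 under RSGL (limma, adjusted p = 1.84e-06). In both genes the RSGL libraries were under 1 FPKM, so they passed the filter through the other groups.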
